A study of Mus musculus with 16 samples.

Results

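The genes described here encode the spectrin and ankyrin membrane skeleton: the spectrins Sptan1 and Sptbn1 and the ankyrins Ank1, Ank2 and Ank3. They are 5 of the 4051 mouse genes that held at least 1 THOC5 peak. Binding meant that the deposited annotation put a peak of that list in an exon, intron, UTR, non-coding exon or end of a RefSeq transcript of the gene. The genes were chosen by family with their peaks, recurrence and score ranks in these lists already known, so these measures are described and none is tested. Over all lists the 5 genes held 101 peaks.

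RNA was immunoprecipitated with THOC5, a subunit of the THO complex that couples transcription to mRNA export, from primary mouse vascular smooth muscle cells. The 4 conditions have 2 lists each. In THOC5 OE, cells overexpressed THOC5 and were kept in osteogenic medium. In GFP OE, cells overexpressed GFP in osteogenic medium. Pi cells were wild type in osteogenic medium, and Ctrl cells were wild type in growth medium. GFP OE cells are labelled wild type too. The sources used here do not give the overexpression construct, the strain or age of the mice, or whether replicates were separate cultures, so the spread between replicates may be technical. Lists ran from 2572 to 4795 peaks, and the read depth behind them is unknown. A peak depends on how much of an RNA the cells hold as well as on THOC5, and in bulk samples fewer cells with an RNA and less of it per cell cannot be told apart. Of 8 smooth muscle markers, 4 were bound (Mylk in all 8 lists; Acta2, Tagln and Smtn in 1 to 3 lists), while Myh11, Cnn1, Myocd and Des had no peak. No endothelial or leukocyte marker was bound (0 of 3 each), and 1 of 3 fibroblast markers was (Pdgfra, in Pi replicate 1). Of 5 osteochondrogenic markers, 1 was bound (Runx2, in 3 lists). A peak list is no measure of expression, so these counts do not settle the cell type.

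Spectrins form long rods of an alpha and a beta chain that line the inner face of the plasma membrane and are cross-linked by short actin filaments. Sptan1 encodes alpha-II spectrin and Sptbn1 encodes beta-II spectrin, the chains found in most cells other than red cells. Ankyrins are adaptors that tie beta spectrin to channels, transporters and adhesion molecules: Ank1 encodes ankyrin-R, known from red cells, Ank2 encodes ankyrin-B and Ank3 encodes ankyrin-G. In muscle this lattice holds ion transporters in place and resists mechanical strain.

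Sptbn1 (mm10 chr11, 30099395 to 30268384, 168990 bp, minus strand) carried the strongest peaks of the family and the only ones that were mostly exonic. Its leading place, chr11, 30138642 to 30139271, lies in exon 13 of a transcript with 31 exons and had a peak in all 8 lists. The peak there had the authors' score rank 8 and 5 in the THOC5 OE lists, 13 and 5 in GFP OE, 10 and 11 in Pi, and 12 and 11 in Ctrl, where rank 1 is the highest score of a list. Percentiles within the list ran from 99.6 to 99.9. By rank THOC5 OE overlapped GFP OE alone, and by percentile the THOC5 OE lists were the highest of the 8, while GFP OE, Pi and Ctrl overlapped each other. A percentile depends on the length of the list as well as on rank. Rank 5 was percentile 99.906 of 4240 peaks in THOC5 OE replicate 2 and 99.844 of 2572 in GFP OE replicate 2. THOC5 OE replicate 1, at rank 8 of 4618, was at 99.848. Of all 12362 places in the series, joined from peaks that share at least 1 base, 2.62% had a peak in all 8 lists.

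Each list has a single peak width, and the centre of the exon 13 peak moved with it. In the lists with peaks of 538, 529 and 553 bp (THOC5 OE replicate 2, GFP OE replicate 2 and Pi replicate 1) the centre lay 111, 128 and 102 bp from that of THOC5 OE replicate 1. In the other lists, with widths of 415 to 473 bp, it lay within 29 bp of it. The part of peak width in this shift was not tested.

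A second exonic place of Sptbn1, in exon 15 of 31 (chr11, 30136968 to 30137441), had a peak in THOC5 OE replicate 1, Pi replicate 2 and both Ctrl lists, and in neither GFP OE list. It ranked 15 in THOC5 OE replicate 1, 19 in Pi replicate 2, and 19 and 16 in Ctrl, and its centre varied by 5 bp. The centres of the exon 13 and exon 15 peaks lay 1820 to 1830 bp apart in these 4 lists. In the 4 lists with the exon 13 peak alone, peaks elsewhere came as close as 1139 bp (THOC5 OE replicate 2), 880 bp (GFP OE replicate 1), 1165 bp (GFP OE replicate 2) and 1168 bp (Pi replicate 1). The spacing of the pair was above the smallest spacing in every list, which does not show whether a second peak was lost at this place. The lists without the exon 15 peak were THOC5 OE replicate 2, GFP OE replicate 2 and Pi replicate 1, with the widest peaks (538, 529 and 553 bp), and GFP OE replicate 1 (420 bp). The part of peak calling and peak width in its absence was not tested.

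The intronic place of Sptbn1 in the most lists, 5, lies at chr11, 30149472 to 30150124, in intron 5 of a longer transcript with 34 introns, and had a peak in THOC5 OE replicate 1, GFP OE replicate 1, Pi replicate 2 and both Ctrl lists, at ranks of 90 to 110. The lists without it, THOC5 OE replicate 2, GFP OE replicate 2 and Pi replicate 1, are those with the widest peaks (538, 529 and 553 bp). The part of peak width in this was not tested. Ctrl replicate 2 alone added a peak in exon 8 of 31 (rank 76). It also added peaks in introns 17 (rank 422) and 24 (rank 42) of the transcript with 34 introns. A further peak in this list, called intergenic, falls inside the RefSeq span of the gene near its start (chr11, 30267673 to 30268088, rank 517). By transcript, Sptbn1 had 3 and 1 peaks in the THOC5 OE lists, 2 and 1 in GFP OE, 1 and 3 in Pi, and 3 and 6 in Ctrl. The means were 2 in THOC5 OE (SD 1.41), 1.5 in GFP OE (SD 0.707), 2 in Pi (SD 1.41) and 4.5 in Ctrl (SD 2.12, n = 2 each). The Ctrl replicates differed by 3 peaks, as much as the largest difference between condition means, and Ctrl replicate 2 also has the longest list. Of the 20 peaks, 13 were exonic and 7 intronic, and 16 were among the 100 highest scores of their list.

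**Figure D1:**
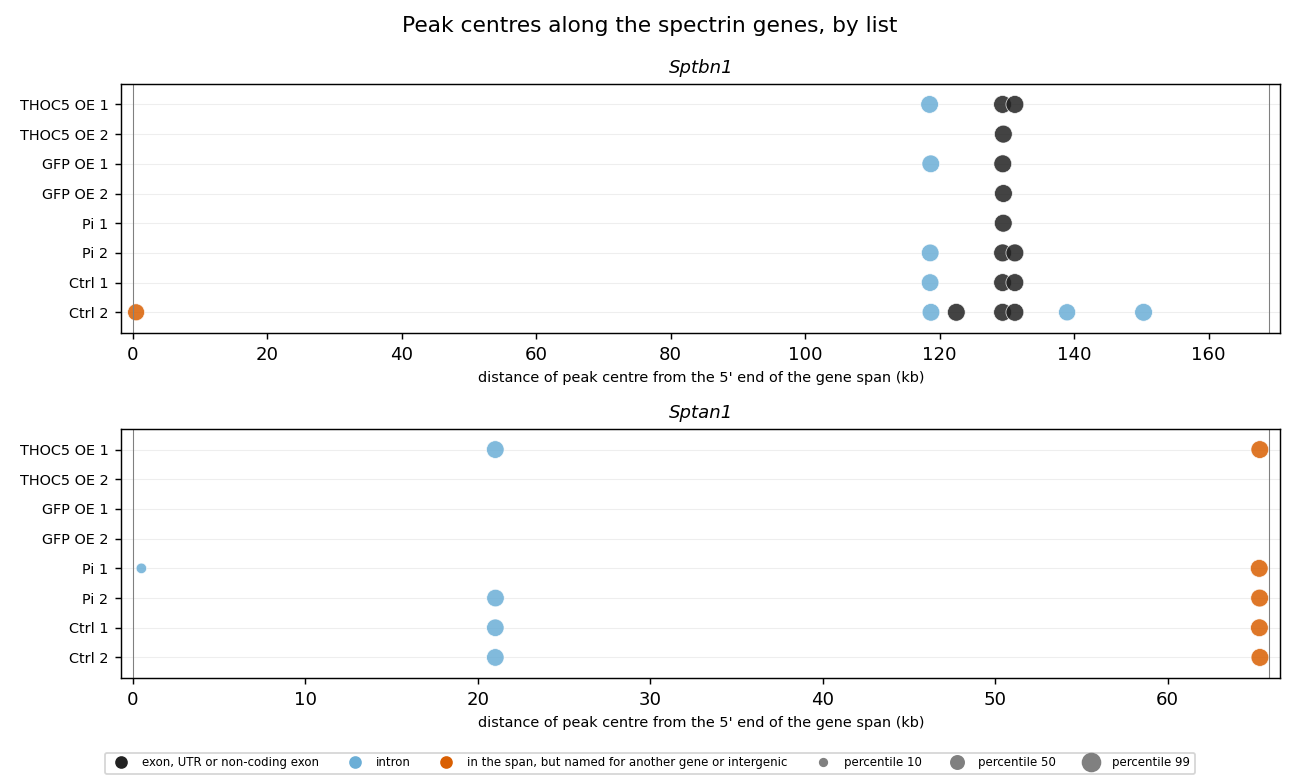
Distance of each peak centre from the 5' end of the gene span in kb (x axis) for Sptbn1 and Sptan1, with 1 line per list; larger points have a higher percentile and are not drawn to the width of a peak. The exon 13 place of Sptbn1 is in all 8 lists, while both strong places of Sptan1 are missing from THOC5 OE replicate 2 and both GFP OE lists.

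Sptan1 (chr2, 29965560 to 30031451, 65892 bp, plus strand) had 5 peaks by transcript and 10 by overlap with its span. The 5 that the transcript rule leaves out are named for Wdr34, a gene of the dynein-2 motor of cilia, as its transcript end. They lie at chr2, 30030603 to 30031156, with centres 533 to 572 bp inside the end of Sptan1, and none overlaps Wdr34 (chr2, 30031551 to 30048879), which starts 99 bp beyond Sptan1. The annotation carries no strand for a peak, and the exons of Sptan1 at this place were not analysed here. The place was present in THOC5 OE replicate 1 (rank 62), both Pi lists (ranks 35 and 44) and both Ctrl lists (ranks 50 and 74), at percentiles of 98.1 to 98.9. It was missing from THOC5 OE replicate 2 and from both GFP OE lists.

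The peaks given to Sptan1 by transcript were all intronic. In intron 7 of 55 (chr2, 29986347 to 29986820), THOC5 OE replicate 1 had a peak at rank 136, Pi replicate 2 at rank 151, and the Ctrl lists at ranks 119 and 195. All 4 are placed by the detailed annotation on a B1 element, a short interspersed repeat, their centres lie within 11 bp of each other, and the annotation's nearest gene for them is Mir6997. Pi replicate 1 instead had a weak peak in intron 1, on a CpG island, whose near edge is 227 bp from the start of the gene, at rank 1877 of 2666.

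The intron 7 place of Sptan1 and the exon 15 place of Sptbn1 were present in the same 4 lists. The lists without them were those with the widest peaks, THOC5 OE replicate 2, GFP OE replicate 2 and Pi replicate 1, and GFP OE replicate 1. That set of lists was shared by 17 of 12362 places (0.138%), and the set at the end of Sptan1 by 6 places (0.0485%). The other sets of 4 or 5 lists at member places were shared by 3 to 37 places. The share of any one exact set is thus small, and these sets were taken from the same peaks. A strong place missing from some lists was common in the series. Of the 162 places that reached percentile 98 or more in any list, 57.4% had a peak in 5 lists or fewer and 22.8% in all 8. By transcript, 1 of the 5 genes, Sptan1, had peaks in each Pi list but in no GFP OE list, a pattern of 6.49% of the genes bound in these 4 lists. The lowest scores kept in the 3 lists without Sptan1 were 6.31 (THOC5 OE replicate 2), 10.2 and 12.6 (GFP OE), against scores of 345.6 to 507.2 at intron 7 and 635.3 to 795.3 at the end of the gene elsewhere. The scale of the score is unknown, so scores of different lists may not be comparable. The part of peak calling and of peak width in these absences was not tested.

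**Figure D2:**
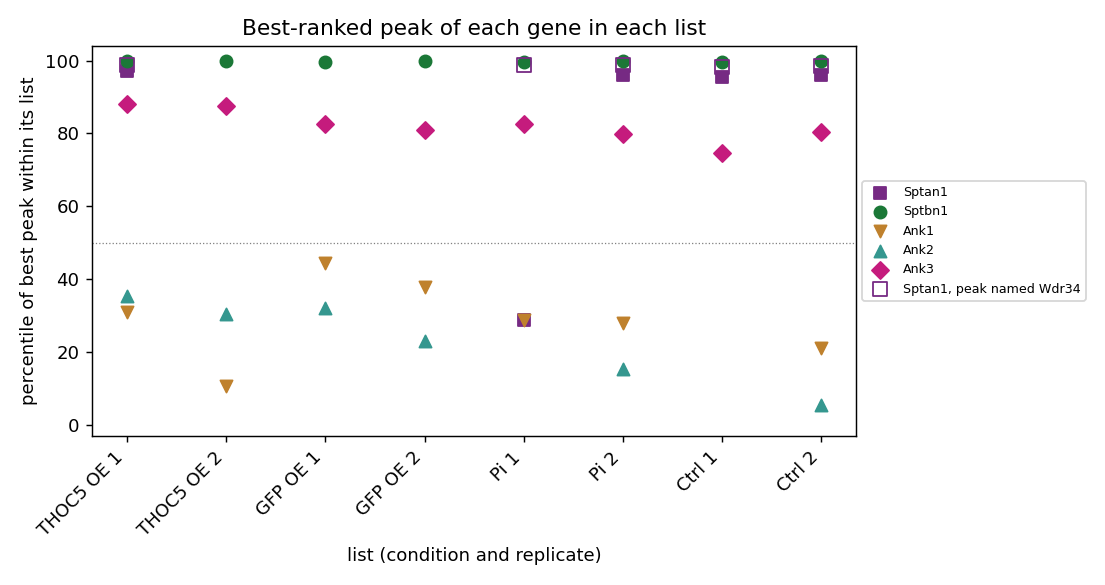
Percentile of the best peak of each gene within each list (y axis, 100 is the highest score) by list (x axis); open squares give Sptan1 with the peaks named for Wdr34, and a missing symbol means no peak. Sptbn1 stays between 99.6 and 99.9 and Ank3 between 74.5 and 88.2, while Ank1 and Ank2 lie below the median of each list.

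Ank3 (chr10, 69533486 to 70027436, 493951 bp) had the most peaks of the family, 46, and most were intronic (40 of 46). The number of peaks on it was exceeded or equalled by few genes: 97.7% of bound genes had fewer. Per length it was less marked, with 9.31 peaks per 100 kb of gene over the 8 lists, against a median of 6.75 over all bound genes. Its leading place is in intron 2 of 42 (chr10, 69808569 to 69809137) and had a peak in all 8 lists. The percentiles there were 88.2 and 87.6 in the THOC5 OE lists, 82.4 and 81.0 in GFP OE, 82.7 and 79.8 in Pi, and 74.5 and 80.3 in Ctrl. By percentile the THOC5 OE values were the highest of the 8, and those of GFP OE and Pi overlapped. By rank they were not the highest. The place ranked 546 and 525 in the THOC5 OE lists, 651 and 489 in GFP OE, 458 and 761 in Pi, and 662 and 939 in Ctrl. The shorter lists GFP OE replicate 2 (2572 peaks) and Pi replicate 1 (2666 peaks) had the best ranks.

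The remaining 19 places of Ank3 lay 3' of it, and the first 275083 bp of the span, 55.7% of it, held no peak in any list. Of its 20 places, 9 were in 1 list only and 4 were in 4 lists or more. After intron 2, the places in most lists were at intron 15 and exon 16 (chr10, 69884669 to 69885415; both THOC5 OE lists, both GFP OE lists and Ctrl replicate 1) and at exon and intron 20 (chr10, 69898092 to 69898896; both THOC5 OE lists, GFP OE replicate 2, Pi replicate 1 and Ctrl replicate 2). In 4 places of Ank3 the peak was called exonic in some lists and intronic in others, as in 2 places of Ank2 and 1 of Ank1. The exon and intron counts of the ankyrins thus depend on where a centre fell. Ank3 had 9 and 8 peaks in the THOC5 OE lists, 5 and 3 in GFP OE, 5 and 4 in Pi, and 5 and 7 in Ctrl. The THOC5 OE lists were above the other 6 lists, by 1 peak over Ctrl replicate 2. These counts are not corrected for the length of the lists. The THOC5 OE lists held 4618 and 4240 peaks in all, against 3711 and 2572 in GFP OE. Pi held 2666 and 3793, and Ctrl 2603 and 4795. The part of list length in the Ank3 counts was not tested.

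Ank2 (chr3, 126921607 to 127500347, 578741 bp, minus strand), the longest gene of the family, had 21 peaks, all below the median score of their list. There were 6 and 7 peaks in the THOC5 OE lists, 4 and 1 in GFP OE, 0 and 2 in Pi, and 0 and 1 in Ctrl. The 4 lists of overexpressing cells thus held 18 peaks and the other 4 lists held 3. The lowest score kept in a list moved with this: it was 6.72 and 6.31 in the THOC5 OE lists, 10.2 and 12.6 in GFP OE, 20.5 and 14.9 in Pi, and 29.0 and 15.9 in Ctrl. Its part in the difference was not tested. Of the 21 Ank2 peaks, 18 scored below 29.0 and 13 below 20.5. With every list cut at 29.0, a threshold chosen after the values were seen and on a score of unknown scale, 3 peaks were left, 1 in each THOC5 OE list and 1 in GFP OE replicate 1. Peaks on Ank2 per 100 kb came to 3.63, below the median over bound genes.

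The place of Ank2 in most lists is in intron 29 of 45 (chr3, 126959092 to 126959631). It had a peak in both THOC5 OE lists, GFP OE replicate 2 and Pi replicate 2, at percentiles of 5.40 to 35.2, and 3 of the 4 peaks are annotated to a TG simple repeat. A place around exon 23 of 25 (chr3, 126929511 to 126930134) was in THOC5 OE replicate 2, GFP OE replicate 1 and Ctrl replicate 2. In Ctrl replicate 2 the peak there was called intron 7 of 9 of another transcript. Both 3' UTR peaks of the family were on Ank2, 1 in GFP OE replicate 1 and 1 in Pi replicate 2, at different places. Of the 14 places, 10 were in 1 list only.

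Ank1 (chr8, 22974836 to 23150501, 175666 bp) was bound in 7 lists, but not at the same place. It had 2 and 1 peaks in the THOC5 OE lists, 2 and 1 in GFP OE, 1 and 1 in Pi, and 0 and 1 in Ctrl. Of its 8 places, 7 were in 1 list, and the other (chr8, 23132195 to 23132908) was in GFP OE replicate 2, called intron 40 of 45, and Ctrl replicate 2, called exon 39 of 44. All 9 peaks were below the median score of their list, at percentiles of 6.21 to 44.5. Ank1 was thus bound in many lists through scattered weak peaks, and Sptbn1 through a shared strong one.

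**Figure D3:**
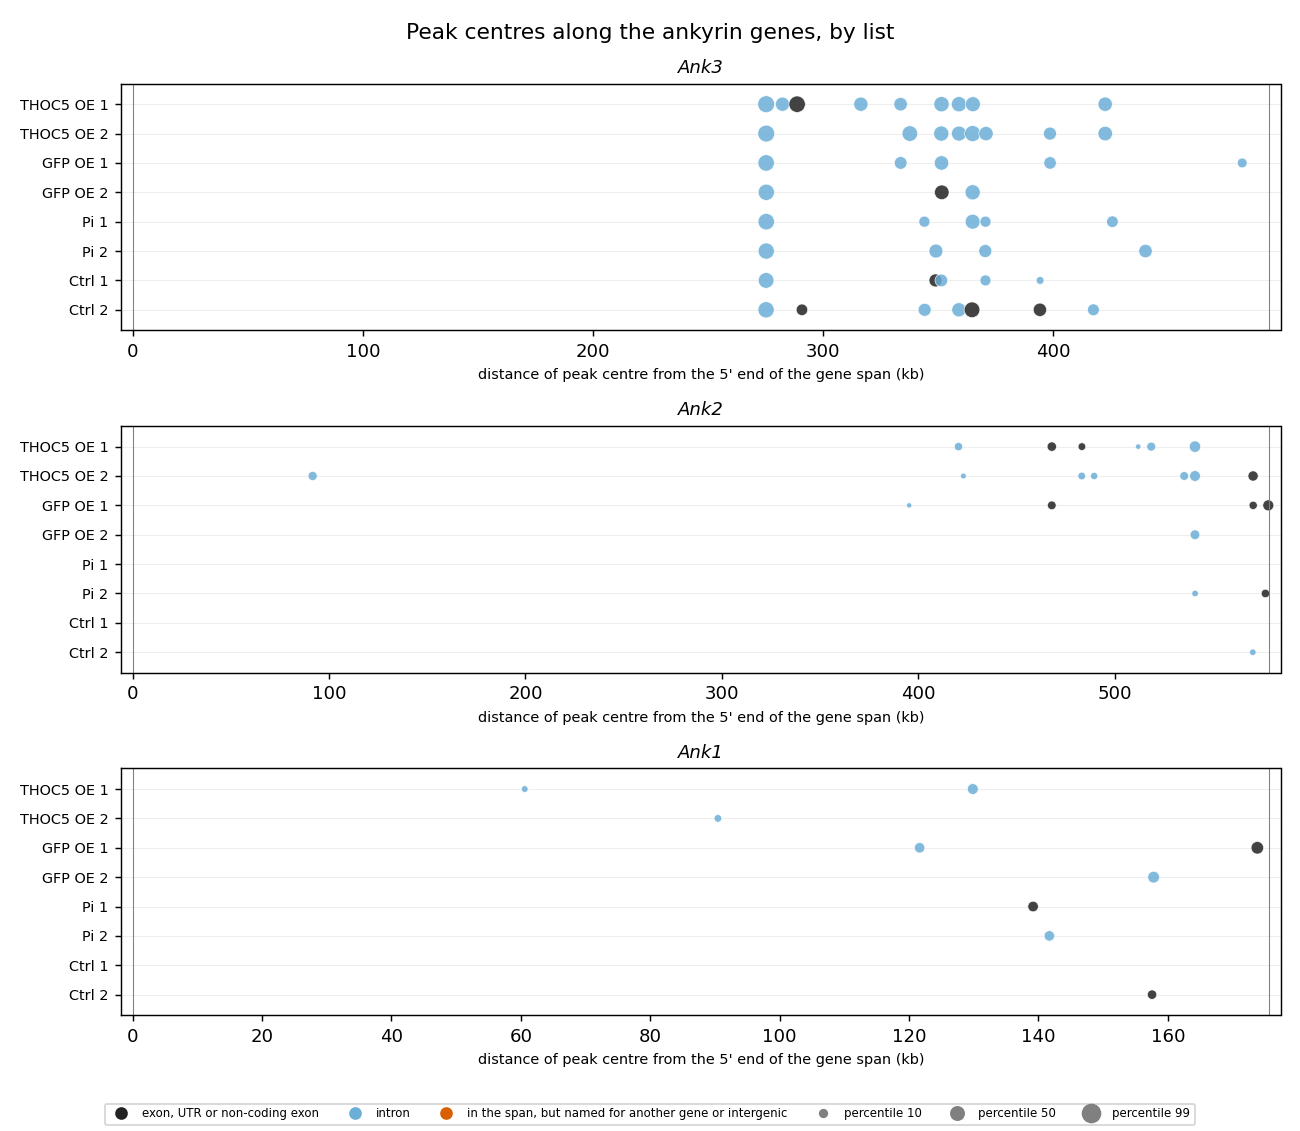
Distance of each peak centre from the 5' end of the gene span in kb (x axis) for Ank3, Ank2 and Ank1, with 1 line per list; larger points have a higher percentile and are not drawn to the width of a peak. The column at the left of Ank3 is the intron 2 place in all 8 lists, and the peaks of Ank1 and Ank2 are small and mostly in 1 list.

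By gene, Sptbn1 and Ank3 were bound in all 8 lists, Ank1 in 7, Ank2 in 6 and Sptan1 in 5. Across the series, 9.87% of bound genes were bound in all 8 lists. The shares bound in 7, 6 or 5 lists are not given here. These counts are not corrected for gene length. The members are 65892 to 578741 bp long, against a median of 46811 bp over bound genes. The order of the best percentiles was Sptbn1, Sptan1, Ank3, then Ank1 and Ank2, with medians over the lists that had a peak of 99.8, 95.9, 81.7, 28.8 and 26.7. Ank1 and Ank2 overlapped in their ranges and are not set apart by this order. Sptan1 ranked above Ank3 in each list where it was bound except Pi replicate 1.

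**Figure D4:**
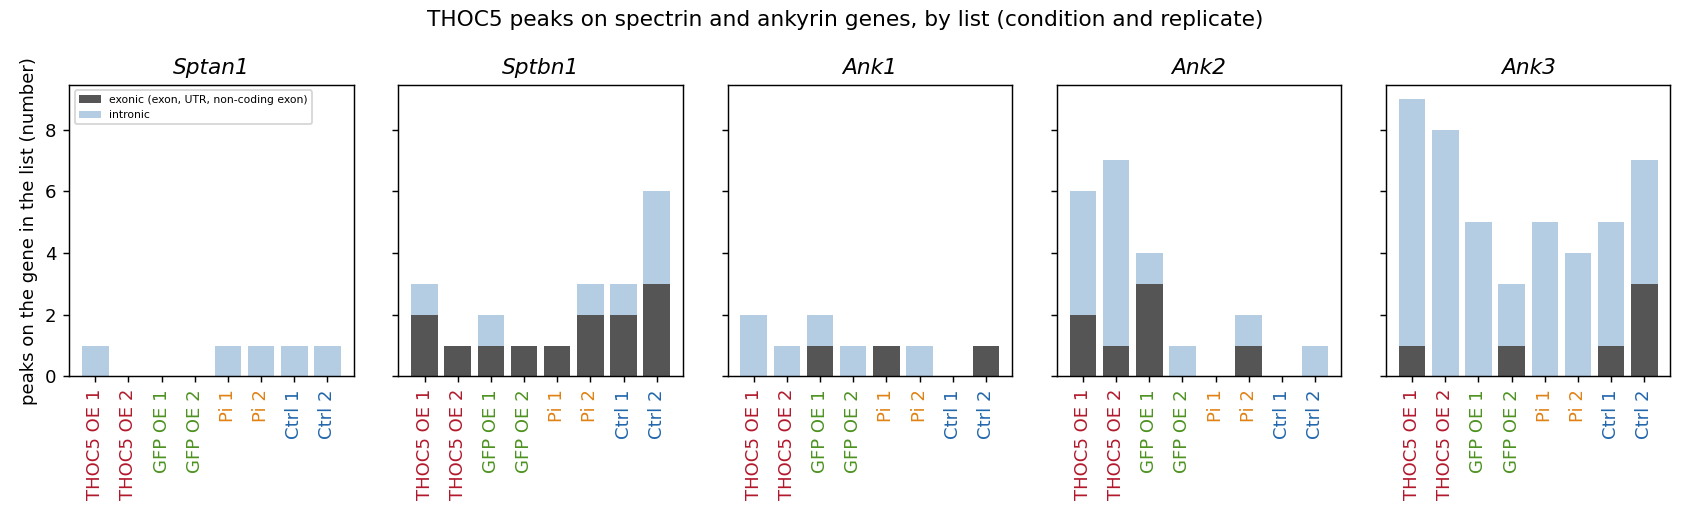
Number of peaks on each gene (y axis) by list (x axis), with exonic peaks in dark grey and intronic peaks in light blue stacked on them. Sptbn1 is the gene with more exonic (13) than intronic (7) peaks, and Ank2 has 18 of 21 peaks in the THOC5 OE and GFP OE lists.

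Together the 5 genes had 21 and 17 peaks in the THOC5 OE lists, 13 and 6 in GFP OE, 8 and 11 in Pi, and 9 and 16 in Ctrl. THOC5 OE averaged 19 peaks (SD 2.83) and GFP OE 9.5 (SD 4.95), with no overlap of the lists (n = 2 each). GFP OE had the same mean as Pi, 9.5 (SD 2.12), and Pi lay below the 12.5 (SD 4.95) of Ctrl with overlapping lists. The excess of THOC5 OE over GFP OE, 9.5 peaks per list, was 6 without GFP OE replicate 2, 5.5 at the common score of 29.0, and 4 with every list cut to its 2572 highest scores. With 2 lists against 2, the smallest two-sided p of an exact permutation test is 0.333. None of the 5 genes had peaks in each THOC5 OE list but no GFP OE list (6.34% of the genes bound in these lists did), or the reverse (1.2%). None had peaks in each GFP OE list but no Pi list (3.65%). Pi against Ctrl likewise gave 0 genes in either direction (3.25% and 3.63%).

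Of the 101 peaks, 72 (71.3%) were intronic, against 53.0% to 63.9% of peaks inside genes in the 8 lists as a whole. The 3 ankyrins had 60 of 76 peaks in introns, Sptan1 had 5 of 5 and Sptbn1 had 7 of 20. Ank3 alone gave 40 of the 72 intronic peaks (87.0% of its own), while Ank1 and Ank2 were each at 66.7%. The pooled share is thus not a trait of each gene. At 7 ankyrin places the call was exonic in some lists and intronic in others. Repeats were annotated at 16 of the 101 peaks (15.8%), against 5.99% to 10.3% of peaks inside genes in the 8 lists. Of these 16, 7 were on Ank3, 5 on Ank2 and 4 on Sptan1, the 4 being the same place in 4 lists. The peaks of the 5 genes joined into 52 places, which count those found by overlap with a span too. Of these 52 places, 31 (59.6%) were in 1 list, against 49.1% of all places, and 10 (19.2%) were in 4 lists or more, against 20.7%. In the promoter windows that RefSeq gives for Sptan1, Sptbn1 and Ank2 (7 windows around annotated starts), no list had a peak. Peaks close to a start did lie outside these windows. By the annotation's distance to a start, a Sptan1 peak in Pi replicate 1 was 503 bp away. An Ank2 peak in THOC5 OE replicate 2 was 357 bp away. For Ank1 and Ank3 there was no such window, and an Ank1 peak in THOC5 OE replicate 1 was 335 bp from a start. The Sptbn1 peak called intergenic in Ctrl replicate 2 lies near the start of the gene span.

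**Figure D5:**
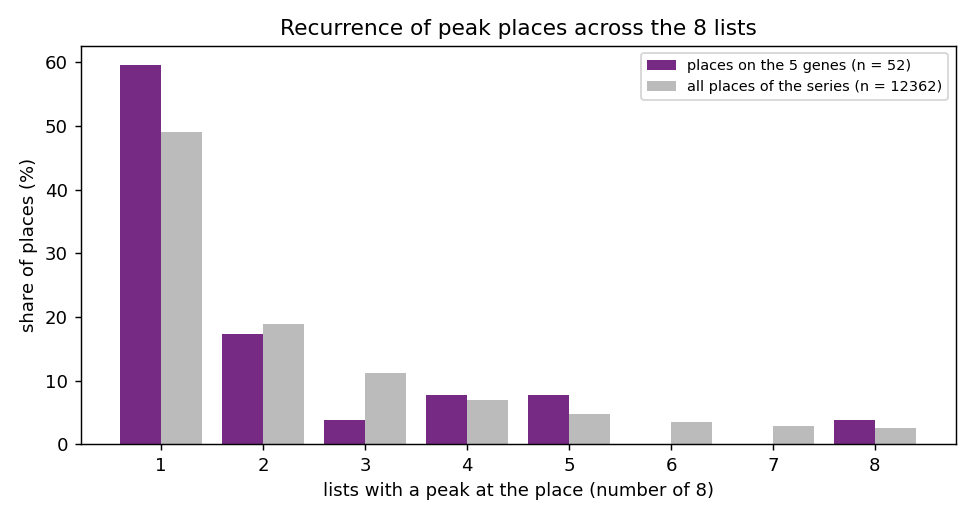
Share of peak places in percent (y axis) by the number of lists with a peak there (x axis), for the 52 places on the 5 genes and for all 12362 places. The 2 member places in all 8 lists are Sptbn1 exon 13 and Ank3 intron 2.

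A list of 41 other genes of the membrane skeleton and of ankyrin's partners was examined beside the 5 members. At least 1 peak was on 13 of them (31.7%), against 18% of all protein-coding genes, and 1 was bound in all 8 lists (2.44%, against 1.82%). That gene was Itpr1, an endoplasmic reticulum calcium channel known to bind ankyrin-B, with 86 peaks: 14 and 12 in the THOC5 OE lists, 12 and 9 in GFP OE, 4 and 16 in Pi, and 6 and 13 in Ctrl. These shares are not corrected for gene length.

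Among the other spectrins, Sptbn5 had a peak in Pi replicate 2 and Ctrl replicate 1, while Sptb and Sptbn4 had none. In the Epb41 family, whose proteins strengthen the bond of spectrin to actin, Epb41, Epb41l1, Epb41l2 and Epb41l3 were each bound in 6 lists, with 6, 7, 10 and 7 peaks. The other 3 members, Epb41l4a, Epb41l4b and Epb41l5, had none. Of the adducins, which cap actin at the spectrin junctions, Add1 had 1 peak in Pi replicate 2 and Add3 had 1 in Ctrl replicate 2, and Add2 had none.

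The alpha-actinin gene Actn1, whose product carries spectrin repeats and bundles actin, had 2 peaks in Pi replicate 2, and 1 and 2 in Ctrl, with best percentiles of 92.0 to 95.7, and no peak in the other 5 lists. Actn4 had 1 peak in Pi replicate 2 and 1 in Ctrl replicate 2. Of the membrane proteins, the anion exchanger gene Slc4a3 was bound in 3 lists and the sodium-calcium exchanger gene Slc8a1 in 4. None of the 8 genes for other skeleton parts, such as the tropomodulins Tmod1 to Tmod4 and dematin (Dmtn), had a peak.

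The genes most like each member were taken by the mean absolute difference of best percentile over the 8 lists, with 0 for no peak. Those nearest Sptbn1 were Prrc2c, Dync1h1 and Cemip, with differences of 0.0768, 0.0774 and 0.105 points. Those nearest Ank3 were Dicer1 (2.05), Usp24 (2.45) and Zfp827 (2.52). Near Sptan1 were Ccnl2 (5.94) and Wdr34 (9.95), whose peaks are those at the end of Sptan1. Nearest Ank2 were Tbc1d31 (1.92), Ints10 (2.15) and Herc3 (3.74), and nearest Ank1 were Cep152 (5.79), Mtus1 (9.31) and Grb10 (9.71). Genes near percentile 100 in every list are close by this measure whatever their pattern, so the small differences at Sptbn1 are not comparable with those of the other members.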

How the data were processed

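RNA bound to THOC5 was measured in 8 immunoprecipitates, and 8 inputs were not used here. The authors deposited 1 annotated peak list per immunoprecipitate. Peaks were annotated with annotatePeaks.pl against mm10, per the file headers. FastQC, Bowtie2, MACS2 and SAMtools are named without roles, per the submitters' processing notes. The sources used here do not say which tool called the peaks, with what settings or against which input. Each peak carries a score that the authors deposited with the list, of unknown scale and normalization. It was used to rank peaks within a list and for the score threshold named in the text. For Sptan1 and Ank2, the lowest scores kept in lists are also printed beside scores of other lists, which may not be comparable. The headers abbreviate condition and replicate, which tied each list to its sample; all were taken to come from immunoprecipitates.

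Of 28614 peaks with a transcript, 99.9% matched a RefSeq gene of the same build (GRCm38). Genes were called by that transcript or by overlap with the RefSeq span. Peaks of different lists sharing at least 1 base were joined into places. The joining was run on simulated places set far apart, with smaller centre shifts than at some places here. That run thus does not test the joining of close or widely shifted peaks. Percentiles rank the score within a list. The genes and lists were chosen with earlier results of these data known, so no test was run and differences stand beside the spread of 2 lists. Named are the members, partner genes with a peak, up to 3 genes most like each member, and genes whose name a member's peak carries; partners without a peak and markers were also named, and a few genes under this rule are not reported here. Python 3.11.15, pandas 2.3.3, numpy 2.4.6 and matplotlib 3.10.9 were used.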

Additional observations from a re-analysis of the deposited data

How the results depend on the processing

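Of 244 values compared, under 16 alternatives and with the replicate number as a block, 214 kept within 1.5 times, or within their own interval or spread, and 30 moved. Keeping peaks at or above the median score of their list left no peak on Ank1 or Ank2 (0 lists each), 6.88 member peaks per list in place of 12.6, and 23 places in place of 52. Bound in all lists were then 12.9% of genes in place of 9.87%. With every list cut to 2572 peaks, Ank1 was bound in 3 lists, Ank2 in 2, there were 32 places, the share of genes in all lists was 11.5%, and THOC5 OE exceeded GFP OE by 4 member peaks per list in place of 9.5. At the common score of 29.0, added after seeing the data, Ank2 was bound in 3 lists and that difference was 5.5. By the authors' nearest gene, Sptan1 was bound in 2 lists. With exonic and UTR peaks only, Sptan1 was bound in 0 lists, Ank1 in 3 and Ank3 in 4, so 1 member, Sptbn1, was bound in all 8. By construction these settings keep fewer peaks or name them for another gene. Leaving out each list gave 10.3% to 12.1% of genes in all remaining lists, 11.4 to 13.6 member peaks per list, 44 to 52 places, and differences of 6 to 13 (THOC5 OE minus GFP OE), -3.5 to 3.5 (GFP OE minus Pi) and -6.5 to 0.5 (Pi minus Ctrl), so the last 2 have no settled sign. With the replicate number as a block the differences were 9.5, 0 and -3. With 2 lists a condition these equal the differences without blocks by construction. They count among the 214 but test nothing. The same holds for a difference when the list left out belongs to neither of its conditions. It holds too for the best percentiles of Ank1, Ank2 and Ank3 by span, since their peaks by span and by transcript are the same. Same-numbered lists did not deviate together over 4051 genes (correlations of -0.0724 to 0.0588), so the numbers were not taken to pair the lists. Calling a peak exonic by overlap with an exon was not run, and the exonic share of each gene's bases is not given, as exon coordinates were not analysed here. Depth is unknown, so a missing peak does not show missing binding.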
